A study of Mus musculus with 9 samples.

Results

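Mafg, the small MAF transcription factor, and 9 genes of antioxidant defence (Nqo1, Hmox1, Gclc, Gclm, Txnrd1, Sod1, Sod2, Cat and Gpx1) were followed in liver RNA of mice conceived in 3 ways. They are 10 of the 55335 genes in the deposited table. Mafg was chosen by its measured FPKM, which lay lower in the IVF and FET groups than in the NC group, so its levels are described without a test. The 9 antioxidant genes were named by symbol as downstream or parallel enzymes. All 10 reached a mean of 1 FPKM and so entered the gene-wise tests; Mafg did so through the NC-chow group and Txnrd1 through the IVF-chow group, the only groups in which they averaged above 1.

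The study asked how frozen and thawed embryo transfer bears on glucose metabolism in offspring, and sequenced the livers of 9 mice, 3 per group. All 9 were B6D2F2 mice aged 20 weeks whose livers were taken after a 4 h fast, and by the study's account they were males on a chow diet. NC-chow mice (numbers 1, 5 and 6) were naturally conceived, IVF-chow mice (2, 3 and 4) came from fresh embryos at the cleavage stage made by in vitro fertilization from B6D2F1/J females and males, and FET-chow mice (2, 3 and 4) from embryos of the same kind that were slowly frozen and thawed. Both kinds of embryo were carried by pseudopregnant ICR females, whereas the NC-chow mice came from natural pregnancies, for which the strain of the dams is not stated in so many words. Transfer to a foster female and fertilization in vitro cannot be told apart in comparisons with NC-chow. Freezing was done by slow freezing alone, and the litters of the sequenced mice are not given in the sources used here.

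In cells under oxidative or electrophilic stress, the transcription factor NRF2 (gene Nfe2l2) escapes from KEAP1, the adaptor that otherwise has it degraded, and pairs with a small MAF protein (MAFG, MAFK or MAFF) on antioxidant response elements near its target genes. Small MAF proteins lack a transactivation domain of their own, so a MAFG dimer alone or a pair of MAFG with BACH1 represses the same elements. The liver uses this system for detoxification, and Nqo1, Hmox1, Gclc, Gclm and Txnrd1 are among its best known targets, while superoxide dismutases, catalase and glutathione peroxidase carry much of the basal defence against superoxide and hydrogen peroxide.

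The values are FPKM, fragment numbers corrected for gene length and library size, so levels can be set side by side between genes. Depth, inferred from the spacing of low values, was 6640000 to 13300000 mapped fragments in NC-chow, 3890000 to 8430000 in IVF-chow and 2000000 to 2940000 in FET-chow, and every FET-chow library was smaller than every other. Nuclear protein-coding genes held between 4.36% (IVF-chow mouse 2) and 29.3% (IVF-chow mouse 4) of the summed FPKM, and 3 abundant non-coding entries held 3.49% to 61.9%, so a gene's FPKM also moved with the make-up of its library. The library names in the labels end in a running number, and those of NC-chow mice 5 and 6 stand apart from those of the other 7 mice; what the numbers stand for is not stated. All 10 hepatocyte markers listed were above 0 in every mouse, with a summed level of 3850 to 35700 FPKM. Pgk1, a glycolytic enzyme that every cell uses, is listed at 0 in FET-chow mouse 2, so a listed 0 here need not mean that a gene was silent. In bulk liver, fewer cells of a type and less RNA per cell cannot be told apart.

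Mafg was well represented in NC-chow liver and low or listed at 0 in the livers of both other groups. Its level was 6.27, 13.7 and 15.3 FPKM in NC-chow mice 1, 5 and 6. IVF-chow mice 2, 3 and 4 had 1.47, 0 and 0.149 FPKM, and FET-chow mice 2, 3 and 4 had 0, 0 and 1.32 FPKM. The lowest NC-chow mouse thus stood 4.27-fold above the highest of the 6 others, and IVF-chow and FET-chow overlapped each other. On the log2(FPKM + 1) scale, the mean difference was -3.18 (SE 0.61, n = 3 and 3) for FET-chow minus NC-chow, -3.09 (SE 0.61) for IVF-chow minus NC-chow and -0.10 (SE 0.61) for FET-chow minus IVF-chow. Among the 6755 genes tested, the groups did not overlap and were lower in FET-chow for 17.1%, in IVF-chow for 5.46% and in both for 2.74%; since Mafg was picked for this pattern, nothing is read from these shares.

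The NC-chow mouse with the lowest Mafg, mouse 1, was also the NC-chow library with the fewest fragments and the one whose label number does not stand apart from those of the IVF-chow and FET-chow libraries. Set against that mouse alone, the Mafg difference was -2.46 for FET-chow and -2.36 for IVF-chow. A single fragment on the longest annotated Mafg transcript (4923 bases) would give 0.102 FPKM in FET-chow mouse 2, the shallowest library, and 0.0153 FPKM in NC-chow mouse 6, the deepest. The estimated number of fragments behind the Mafg values was 205, 810 and 1001 in NC-chow, 61, 0 and 3 in IVF-chow and 0, 0 and 19 in FET-chow. All 3 NC-chow livers thus held more Mafg fragments than any other liver. NC-chow libraries were also the larger ones but for IVF-chow mouse 2, where nuclear protein-coding genes held 4.36% of the summed FPKM against 10.1% in NC-chow mouse 1, and the part of depth in the Mafg values was not tested.

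Median-ratio scaling, which brings the typical gene of each liver to a common level, left NC-chow apart from the others. Scaled Mafg was 6.69, 10.2 and 9.91 in NC-chow, 4.27, 0 and 0.0762 in IVF-chow, and 0, 0 and 2.62 in FET-chow. IVF-chow mouse 2, in which the 3 non-coding entries took 61.9% of the summed FPKM, came nearest to the NC-chow range. Scaled differences were -2.67 for FET-chow and -2.46 for IVF-chow against NC-chow. With this scaling 13.6% of all genes tested lay wholly lower in FET-chow and 8.72% in IVF-chow than in NC-chow. In FPKM the median of all genes tested lay at -0.46 for FET-chow and -0.25 for IVF-chow, and relative to these medians Mafg differed by -2.72 and -2.84.

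**Figure D1:**
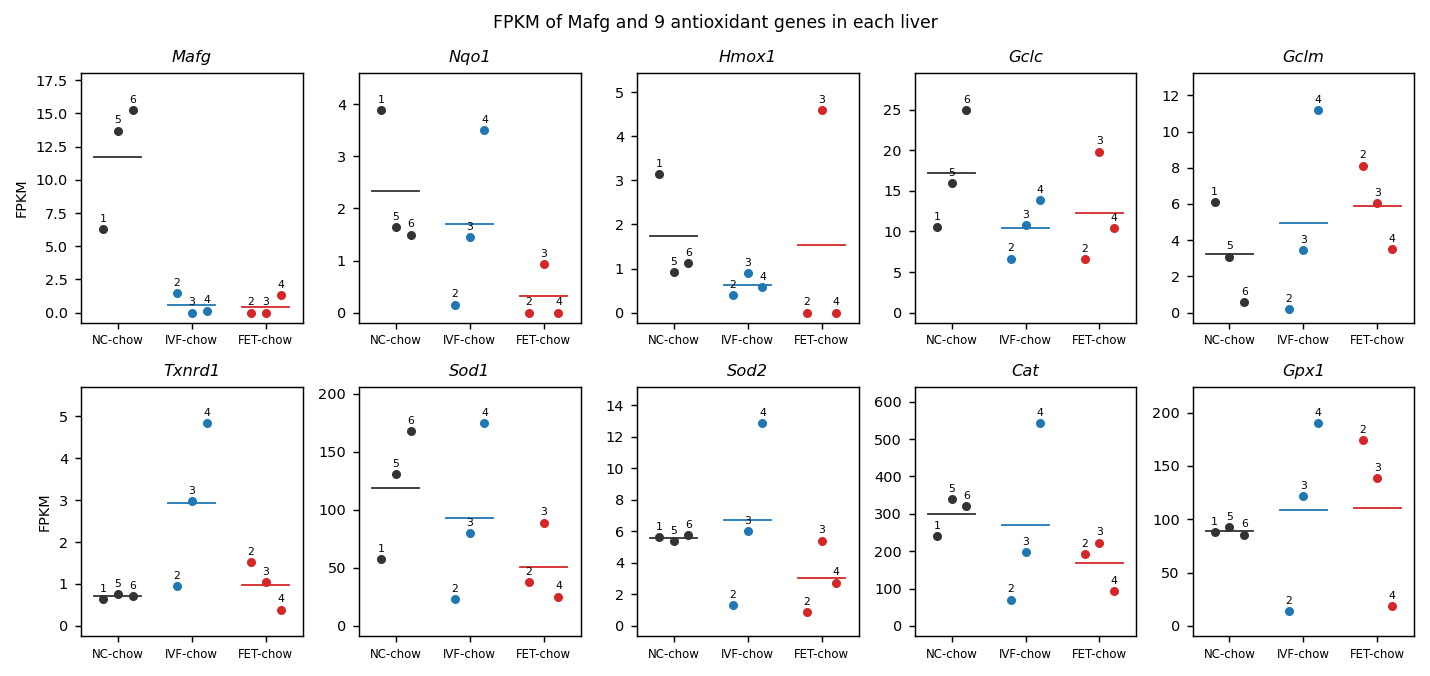
FPKM (vertical axes, linear, 1 scale per gene) of Mafg and 9 antioxidant genes in each liver, with points numbered by mouse and horizontal lines for group means of 3 mice. Mafg is the gene whose 3 NC-chow points (6.27 to 15.3 FPKM) all lie above all 6 others (at most 1.47 FPKM); of the IVF-chow points of the other genes, mouse 2 is the lowest and mouse 4 the highest for every gene but Hmox1.

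The Mafg gene lies on the minus strand of chromosome 11 (chr11:120625117-120633600, GRCm38), with 5 annotated transcripts. Its last 124 bases, exonic, are shared with the start of Sirt7, which encodes a nuclear NAD-dependent deacylase on the same strand, so that fragments there could be counted for either gene. Sirt7 stood at 4.22, 3.18 and 6.73 FPKM in NC-chow, at 1.13, 2.79 and 5.45 FPKM in IVF-chow and at 2.19, 1.47 and 1.56 FPKM in FET-chow. It was above 0 in every liver, including the 3 in which Mafg is listed at 0. The nearest annotated neighbours were Mir6936, 241 bases away and at most 0.905 FPKM, and Gm17586, 168 bases upstream on the opposite strand and not analysed here.

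The core of the antioxidant response element, TGACNNNGC, was looked for on both strands of RefSeq promoter windows of 300 bases (250 before to 50 after a start, GRCm38.p6). It occurred in the windows of 4 of the 8 genes that have one, namely Mafg, Gclm, Txnrd1 and Sod1, against 12.4% of all 32851 windows and 14.0% of genes. Windows of Nqo1, Sod2, Cat and Gpx1 did not hold these letters, and none was given for Hmox1 and Gclc. All 4 matches read on the strand opposite to the gene, so that the sequences below, written 5′ to 3′ along each gene, show its reverse complement in capitals. They are shown because Mafg and the partners of MAFG act through this element; a match is a description of letters and not evidence of binding.
Mafg, chr11:120633601-120633797, minus strand, directly upstream of the annotated gene: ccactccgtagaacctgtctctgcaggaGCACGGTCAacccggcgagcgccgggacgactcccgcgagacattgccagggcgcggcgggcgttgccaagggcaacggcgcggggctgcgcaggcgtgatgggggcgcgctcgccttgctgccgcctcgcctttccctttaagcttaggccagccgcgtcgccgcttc
Gclm, chr3:122245408-122245446, plus strand: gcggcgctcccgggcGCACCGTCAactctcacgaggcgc
Txnrd1, chr10:82859099-82859137, plus strand, at the second of 3 starts: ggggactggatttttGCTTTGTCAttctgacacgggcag
Sod1, chr16:90220691-90220729, plus strand: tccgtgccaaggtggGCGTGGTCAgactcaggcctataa
The match began 222 bases before the RefSeq start for Mafg, 134 for Gclm, 92 for Txnrd1 and 56 for Sod1.

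None of the 9 antioxidant genes passed the threshold in any comparison (limma, adjusted p under 0.05 over 6755 genes). The same test called 0.237% of all genes for FET-chow against NC-chow, 0.0592% for IVF-chow against NC-chow and 0.0888% for FET-chow against IVF-chow. At an unadjusted p under 0.05 it was 1 of the 9 (Nqo1, FET-chow against NC-chow), beside 12.0% of all genes. It was 0 of the 9 for IVF-chow against NC-chow and for FET-chow against IVF-chow, beside 4.07% and 4.01% of all genes. Txnrd1 entered the tests through IVF-chow, so its place in the counts of comparisons with IVF-chow is a description. IVF-chow and FET-chow overlapped for all 9, where 2.56% of all genes lay wholly lower and 1.27% wholly higher in FET-chow. Of the 9 genes, 7 lay below 0 in FET-chow minus NC-chow (median -0.53), 7 in IVF-chow minus NC-chow (median -0.45) and 5 in FET-chow minus IVF-chow (median -0.31). Over all genes tested the shares below 0 were 74.4%, 68.9% and 65.4%, with medians of -0.46, -0.25 and -0.20. The counts and medians of the 9 genes thus lay near those of all genes tested.

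Among the NRF2 targets, Nqo1, which reduces quinones to hydroquinones, stood lower in FET-chow liver than in NC-chow liver without passing the test. Its level was 3.9, 1.64 and 1.5 FPKM in NC-chow, 0.156, 1.45 and 3.5 FPKM in IVF-chow, and 0, 0.932 and 0 FPKM in FET-chow. The highest FET-chow mouse lay below the lowest NC-chow mouse, while IVF-chow spanned both. The difference for FET-chow minus NC-chow was -1.35 (SE 0.60, limma adjusted p = 0.356), and for IVF-chow minus NC-chow it was -0.45 (SE 0.60, adjusted p = 1). Nqo1 is thus 1 of 2 antioxidant genes, with Cat, whose FET-chow values all lay below those of NC-chow, in a comparison where 17.1% of all genes did so; both kept this separation after median-ratio scaling, beside 13.6% of all genes.

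Hmox1, the inducible haem oxygenase, was low in every group and irregular in FET-chow. It stood at 3.14, 0.922 and 1.13 FPKM in NC-chow, 0.399, 0.903 and 0.584 FPKM in IVF-chow, and 0, 4.6 and 0 FPKM in FET-chow. FET-chow mouse 3 had the highest value of all 9 livers and the other FET-chow mice are listed at 0, whereas all 3 IVF-chow values lay below the lowest NC-chow value, that of mouse 3 only just. That made Hmox1 the only 1 of the 9 genes to lie wholly below NC-chow in IVF-chow, beside 5.46% of all genes, and the groups overlapped once scaled. The differences were -0.53 (SE 0.62, adjusted p = 0.776, limma) for FET-chow and -0.67 (SE 0.62, adjusted p = 1) for IVF-chow against NC-chow. Hmox1 is also made by Kupffer cells that clear red cells, and the summed level of 13 Kupffer cell and macrophage markers ranged from 35.4 to 54.3 FPKM in NC-chow, 10.9 to 83.1 FPKM in IVF-chow and 19.9 to 129 FPKM in FET-chow. With median-ratio scaling the sums were 35.2 to 38.0 in NC-chow, 31.5 to 55.9 in IVF-chow and 39.6 or more in FET-chow. Every FET-chow sum thus lay above every NC-chow sum, that of FET-chow mouse 4 only just. Of the markers tested, Cd5l and C1qb lay wholly higher in FET-chow than in NC-chow with this scaling, beside 7.98% of all genes. Clec4f, Vsig4, Cd68, C1qa, C1qc, Csf1r and Lyz2 overlapped. The part of Kupffer cells in the Hmox1 values was not tested.

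The subunits of glutamate-cysteine ligase, the rate-limiting enzyme of glutathione synthesis, showed no common shift. Gclc, the catalytic subunit, was 10.5, 16 and 25 FPKM in NC-chow, 6.66, 10.7 and 13.9 FPKM in IVF-chow, and 6.56, 19.8 and 10.5 FPKM in FET-chow. Gclm, the modifier subunit, was 6.1, 3.09 and 0.592 FPKM in NC-chow, 0.18, 3.45 and 11.2 FPKM in IVF-chow, and 8.12, 6.06 and 3.52 FPKM in FET-chow. All 3 groups overlapped for both genes, and for Gclm the range over NC-chow mice was wider than the difference between any pair of group means. Gclc averaged 17.2 ± 7.30 FPKM (SD, n = 3) in NC-chow and 12.3 ± 6.83 FPKM in FET-chow, a difference of -0.50 (SE 0.87, limma adjusted p = 0.859) that turned to 0.10 when livers were scaled to nuclear protein-coding genes. For Gclm the means were 3.26 ± 2.76 and 5.90 ± 2.30 FPKM, a difference of 0.89 (SE 0.75, limma adjusted p = 0.68) that turned to -0.10 against NC-chow mouse 1 alone. Gclm shares 296 exonic bases with an antisense transcript, Gm17494, which stayed at or below 0.804 FPKM in every liver, and strandedness is not given in the sources used here.

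Txnrd1, the cytosolic thioredoxin reductase, was low in every group and averaged above 1 FPKM in IVF-chow alone. It entered the tests through that group, so its separation from NC-chow is a description. It stood at 0.648, 0.766 and 0.706 FPKM in NC-chow, 0.948, 2.98 and 4.84 FPKM in IVF-chow, and 1.51, 1.04 and 0.386 FPKM in FET-chow. Every IVF-chow mouse lay above every NC-chow mouse, as for 0.77% of all genes, and FET-chow overlapped both. The difference for IVF-chow minus NC-chow was 1.06 (SE 0.59), and with no filter on low values it did not pass (limma adjusted p = 0.717). Scaled by median ratios, the 3 IVF-chow livers drew together at 2.75, 2.62 and 2.47, above FET-chow at 1.37, 0.86 and 0.768 and NC-chow at 0.691, 0.571 and 0.458. After that scaling no pair of groups overlapped. Of all genes tested, 7.25% then lay wholly higher in IVF-chow than in NC-chow, 7.98% wholly higher in FET-chow than in NC-chow and 8.75% had every FET-chow value below every IVF-chow value.

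**Figure D2:**
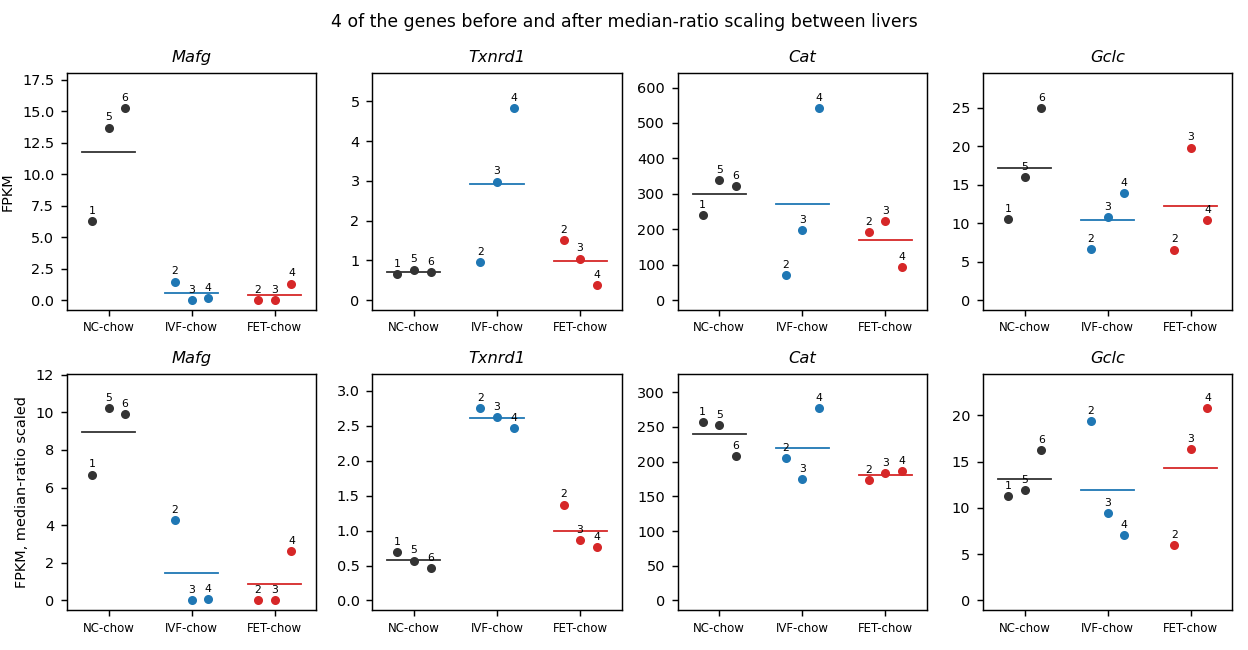
Mafg, Txnrd1, Cat and Gclc in each liver as deposited FPKM (top) and after median-ratio scaling (bottom), linear axes, points numbered by mouse and lines for group means of 3 mice. Scaling drew the IVF-chow Txnrd1 values together (2.47 to 2.75), left Mafg highest in NC-chow and left Gclc overlapping in all groups.

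The superoxide dismutases overlapped in all comparisons. Sod1, the cytosolic copper-zinc enzyme, was 57.3, 131 and 168 FPKM in NC-chow, 23.2, 80.2 and 175 FPKM in IVF-chow, and 37.9, 89.1 and 25.3 FPKM in FET-chow. Sod2, the mitochondrial manganese enzyme, was 5.61, 5.41 and 5.77 FPKM in NC-chow, 1.34, 6.03 and 12.9 FPKM in IVF-chow, and 0.894, 5.41 and 2.75 FPKM in FET-chow. In FPKM, NC-chow mice lay close together for Sod2 (5.60 ± 0.185 FPKM, SD, n = 3), while IVF-chow ran from far below to far above them. With median-ratio scaling Sod2 ran from 3.75 to 5.99 in NC-chow and from 3.9 to 6.57 in IVF-chow. The differences for FET-chow minus NC-chow were -1.27 (SE 1.08, limma adjusted p = 0.68) for Sod1 and -0.88 (SE 0.74, adjusted p = 0.671) for Sod2. For IVF-chow minus NC-chow they were -0.64 and -0.11, both with an adjusted p of 1, and the sign for Sod2 turned with median-ratio scaling (0.16).

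Catalase and glutathione peroxidase, which remove hydrogen peroxide, were with Sod1 the most abundant of the 10 transcripts. Cat, the peroxisomal enzyme, was 241, 339 and 321 FPKM in NC-chow, 70.7, 198 and 543 FPKM in IVF-chow, and 192, 223 and 93.9 FPKM in FET-chow. All 3 FET-chow values lay below all 3 NC-chow values, with means of 169 ± 67.3 and 300.2 ± 52.2 FPKM (SD, n = 3), and IVF-chow overlapped both. The difference was -0.90 (SE 1.08, limma adjusted p = 0.783). Scaled values ran from 173.7 to 187 in FET-chow and from 208 to 257 in NC-chow, still apart.

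Gpx1, the cytosolic glutathione peroxidase, was 87.7, 92.4 and 85.7 FPKM in NC-chow, 13.9, 122 and 190.2 FPKM in IVF-chow, and 174, 138 and 18.8 FPKM in FET-chow. In FPKM, NC-chow mice were close to each other, and each of the other groups had 1 liver far below and 2 above them. With median-ratio scaling Gpx1 ran from 55.6 to 93.6 in NC-chow. The low livers then stood nearer, at 40.4 (IVF-chow mouse 2) and 37.4 (FET-chow mouse 4). The difference for FET-chow minus NC-chow was -0.19 (SE 1.13, limma adjusted p = 0.965), and it changed sign to 0.30 with median-ratio scaling. The low livers, IVF-chow mouse 2 and FET-chow mouse 4, were those with the smallest share of FPKM on nuclear protein-coding genes (4.36% and 4.41%).

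By mean NC-chow level the order ran from Cat through Sod1, Gpx1, Gclc, Mafg, Sod2, Gclm, Nqo1 and Hmox1 to Txnrd1. Every NC-chow value of Cat lay above those of Sod1, as did Gpx1 above Gclc, Mafg above Sod2 and Hmox1 above Txnrd1. Sod1 and Gpx1 overlapped, as did Gclc and Mafg, Sod2 and Gclm, Gclm and Nqo1, and Nqo1 and Hmox1. Mafg, at 11.8 ± 4.81 FPKM (SD, n = 3), was thus in the range of Gclc in NC-chow. In FET-chow, by contrast, the highest Mafg value (1.32 FPKM) was below the lowest Gclc value (6.56 FPKM).

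**Figure D3:**
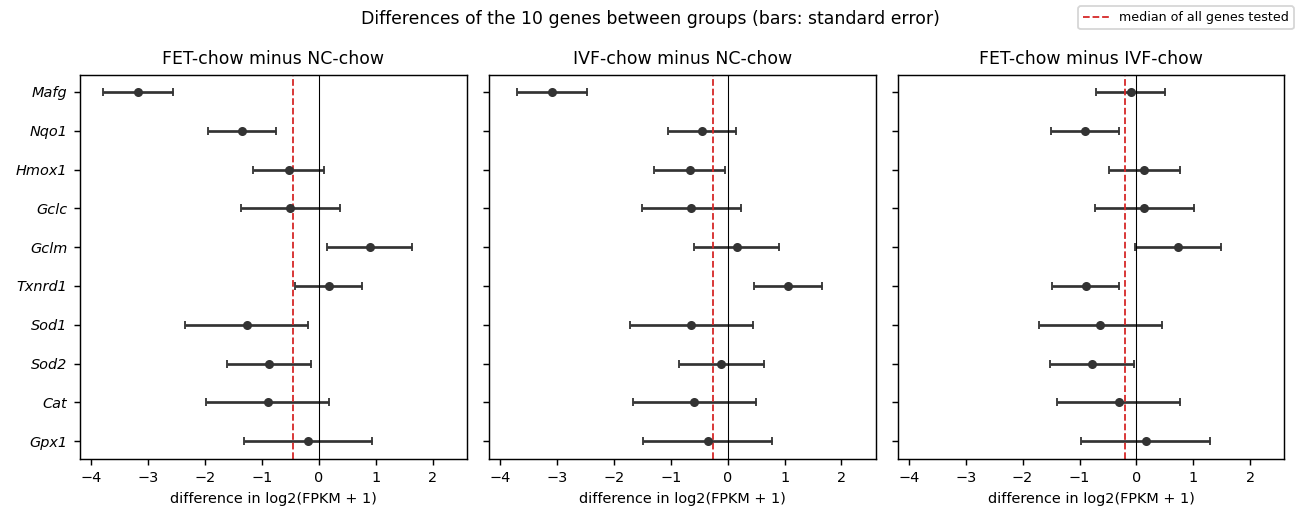
Differences between group means in log2(FPKM + 1), with standard errors from the common fit of 9 mice, for 10 genes in 3 comparisons; the dashed line is the median of all 6755 genes tested. Mafg stands at -3.18 and -3.09 against NC-chow, and the 9 antioxidant genes lie between -1.35 and 1.06.

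The partners and inhibitors of the NRF2 system were read from a list of 13 regulators, of which 9 reached a mean of 1 FPKM. Mafg aside, 8 were tested and none passed in any comparison (limma; at an unadjusted p under 0.05 it was 2, 1 and 1 for FET-chow against NC-chow, IVF-chow against NC-chow and FET-chow against IVF-chow, beside 12.0%, 4.07% and 4.01% of all genes). Below 0 were 7 of the 8 in FET-chow (median -0.91) and 8 of 8 in IVF-chow (median -0.33) against NC-chow, beside 74.4% and 68.9% of all genes. With median-ratio scaling it was 6 of 8 (median -0.61) and 5 of 8 (median -0.07), beside 56.7% and 50.1% of all genes. Groups did not overlap and were lower in FET-chow for 3 of them, Nfe2l2, Keap1 and Cul3, and in IVF-chow for Nfe2l2, beside 17.1% and 5.46% of all genes tested. Cul3 averaged above 1 FPKM in NC-chow alone and entered the tests through that group, so its place in this count is a description. For FET-chow against IVF-chow all 8 overlapped in FPKM. With median-ratio scaling 3 lay wholly lower in FET-chow (Nfe2l2, Keap1 and Rbx1) and 1 wholly higher (Mafk). Of all genes tested, 8.75% lay wholly lower in that comparison and 302 of 6755 wholly higher.

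Nfe2l2, which encodes NRF2, came nearest to Mafg among these regulators in its differences from NC-chow. Its level was 13.5, 35.1 and 37.7 FPKM in NC-chow, 1.85, 4.49 and 10.8 FPKM in IVF-chow, and 3.74, 2.65 and 0.364 FPKM in FET-chow. All NC-chow mice lay above all others, as for Mafg, and within NC-chow mouse 1 was again the lowest. The difference was -3.25 (SE 0.80, limma adjusted p = 0.0519) for FET-chow minus NC-chow, just short of the threshold, -2.26 (SE 0.80, adjusted p = 0.619) for IVF-chow minus NC-chow and -0.99 (SE 0.80, adjusted p = 1) for FET-chow minus IVF-chow. The FET-chow difference passed with median-ratio scaling (-2.93, adjusted p = 0.0272), with scaling to nuclear protein-coding genes (-2.84, adjusted p = 0.0374), without NC-chow mouse 1 (-3.70, adjusted p = 0.036) and without FET-chow mouse 2 (-3.61, adjusted p = 0.0303). In the other alternatives with more than 1 NC-chow mouse the adjusted p ran from 0.112 to 0.475, and against NC-chow mouse 1 alone the difference was -2.34.

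Keap1, the adaptor that holds NRF2 for degradation, was 1.88, 2.95 and 4.67 FPKM in NC-chow, 0.771, 3.37 and 5.5 FPKM in IVF-chow, and 0, 1.1 and 0.42 FPKM in FET-chow. FET-chow lay wholly below NC-chow and IVF-chow spanned it. The difference for FET-chow minus NC-chow was -1.48 (SE 0.61, limma adjusted p = 0.329). Cul3 and Rbx1, the scaffold and the RING subunit of the ligase that KEAP1 serves, differed by -0.74 and -1.09 (adjusted p = 0.495). Sqstm1, the autophagy receptor that can sequester KEAP1, differed by -1.24 (adjusted p = 0.625), and Nfe2l1, the NRF2 relative, by -0.48 (adjusted p = 0.828).

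The FPKM of the other small MAF genes overlapped between all groups. Mafk was 0.274, 1.96 and 2.7 FPKM in NC-chow, 0.401, 1.51 and 1.25 FPKM in IVF-chow, and 3.07, 2.12 and 0.67 FPKM in FET-chow. Its highest and lowest values were in FET-chow mouse 2 and NC-chow mouse 1, and the difference was 0.20 for FET-chow minus NC-chow (limma adjusted p = 0.924). With median-ratio scaling Mafk lay wholly higher in FET-chow than in IVF-chow, but only just (1.3315 in FET-chow mouse 4, 1.3311 in IVF-chow mouse 3). Maff, below a mean of 1 FPKM and not tested, was 0.993, 1.01 and 0.411 FPKM in NC-chow, 0.112, 0 and 1.81 FPKM in IVF-chow, and 1.56, 0 and 0.4 FPKM in FET-chow. Mafg was the highest of the small MAF genes in each NC-chow liver. Bach1, a repressor that also pairs with small MAF proteins, differed by -0.02 in both FET-chow and IVF-chow against NC-chow, and by 0.29 in FET-chow with median-ratio scaling. Bach2, Nfe2l3 and Nfe2, the remaining regulators listed, stayed below a mean of 1 FPKM and were not tested.

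**Figure D4:**
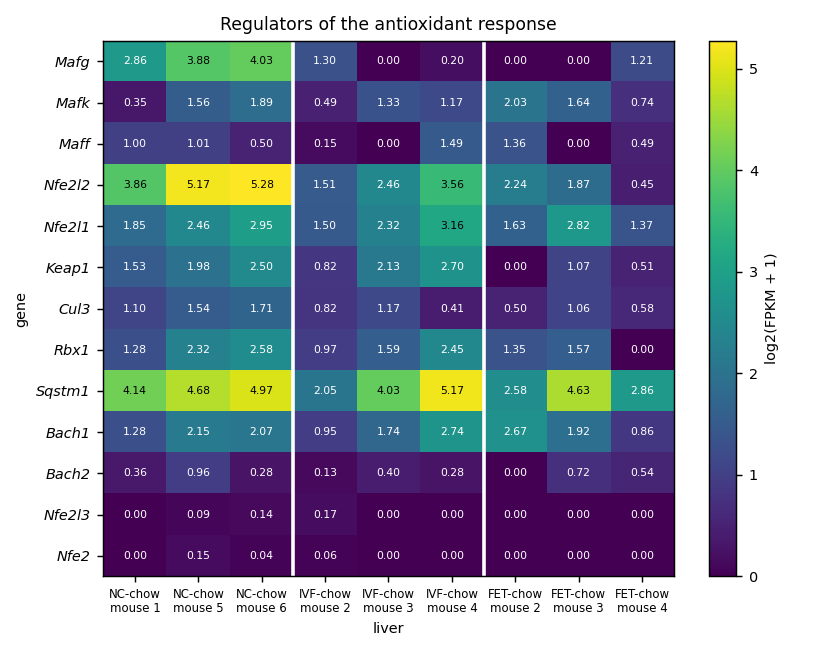
Level of 13 regulators of the antioxidant response in log2(FPKM + 1) (colour and printed value) in each of 9 livers, white lines separating the groups. Mafg and Nfe2l2 are brightest in the 3 NC-chow livers (6.27 to 15.3 and 13.5 to 37.7 FPKM); Mafk and Bach1 overlap between groups.

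Beyond the members, 78 of 99 listed pathway genes were tested, and none passed in any comparison (limma; 13, 2 and 3 at an unadjusted p under 0.05 for FET-chow against NC-chow, IVF-chow against NC-chow and FET-chow against IVF-chow, beside 12.0%, 4.07% and 4.01% of all genes). Below 0 were 57 of 78 (73.1%) in FET-chow (median -0.70) and 60 of 78 (76.9%) in IVF-chow (median -0.38) against NC-chow. Over all genes tested the shares were 74.4% and 68.9%, with medians of -0.46 and -0.25. With median-ratio scaling it was 49 of 78 (62.8%, median -0.31) and 44 of 78 (56.4%, median -0.07), beside 56.7% and 50.1% of all genes. In FET-chow 18 lay wholly below NC-chow and 3 wholly above, and in IVF-chow 5 and 0, beside 17.1%, 1.98%, 5.46% and 0.77% of all genes. Scaled, the counts were 17 below and 9 above in FET-chow and 12 below and 6 above in IVF-chow, beside 13.6%, 7.98%, 8.72% and 7.25% of all genes.

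Of the other NRF2 targets, 30 of 36 were tested and 23 lay below 0 in FET-chow minus NC-chow (median -1.07). With median-ratio scaling, which brings the median of all genes to -0.11, it was 21 with a median of -0.63. Gstm4, a glutathione S-transferase, was 5.13, 7.55 and 10.2 FPKM in NC-chow, 0.492, 1.52 and 2.54 FPKM in IVF-chow, and 0, 2.2 and 0.608 FPKM in FET-chow. NC-chow lay wholly above both other groups, as for 2.74% of all genes. The differences were -2.28 (limma adjusted p = 0.0865) for FET-chow and -1.82 (adjusted p = 0.538) for IVF-chow. Genes of this family are close in sequence, and how the authors' counting split shared fragments between them is not given in the sources used here. Gsta2, another transferase, differed by -2.33 in FET-chow (adjusted p = 0.223) and passed without FET-chow mouse 2, the only FET-chow liver with more than 1 FPKM of it (-3.33, adjusted p = 0.015). Abcc2, a canalicular exporter of conjugates, was 10.2, 20.4 and 18.3 FPKM in NC-chow and 3.75, 6.38 and 1.72 FPKM in FET-chow (difference -1.87, adjusted p = 0.334).

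Osgin1, an oxidative stress response gene, went the other way. It was 1 of 2 other NRF2 targets wholly higher in FET-chow than in NC-chow, beside 1.98% of all genes. It was 25.9, 1.44 and 1.65 FPKM in NC-chow, 5.92, 20.6 and 49.4 FPKM in IVF-chow, and 28.0, 105 and 29.1 FPKM in FET-chow. FET-chow lay wholly above NC-chow, though NC-chow mouse 1 stood close below it and far above the other NC-chow mice, and the groups overlapped with median-ratio scaling. The difference was 3.02 for FET-chow (SE 1.0, limma adjusted p = 0.205) and 1.81 for IVF-chow (adjusted p = 1) against NC-chow. The second such target, Gstp1, was 147, 264 and 185 FPKM in FET-chow against 29.7, 120 and 96.5 FPKM in NC-chow. Its difference was 1.44 (limma adjusted p = 0.629), and it stayed wholly higher in FET-chow with median-ratio scaling. Ftl1 and Prdx1 of this list were also wholly higher with that scaling, beside 7.98% of all genes.

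Genes of glutathione synthesis and use, 16 of 26 tested, had a median of -0.18 in FET-chow minus NC-chow, above that of all genes, and 10 lay below 0; with median-ratio scaling the median turned to 0.24, with 6 below 0. The largest differences were those of Gstk1, a mitochondrial and peroxisomal transferase (-1.85, limma adjusted p = 0.379), Hagh, a glyoxalase (-1.27), Chac2, which degrades glutathione (-1.07), and Glrx5, a mitochondrial glutaredoxin (-0.61). Thioredoxin and peroxiredoxin genes, 16 of 18 tested, had a median of -0.91, with 11 below 0, and with that scaling a median of -0.52, with 10 below 0. Prdx3, the mitochondrial peroxiredoxin, was 14.6, 11.5 and 18.6 FPKM in NC-chow and 4.24, 4.53 and 1.4 FPKM in FET-chow (difference -1.93, limma adjusted p = 0.347). FET-chow thus lay wholly lower for Prdx3, as for 17.1% of all genes. Srxn1, which repairs oxidised peroxiredoxins, differed by -1.43 (adjusted p = 0.352), Prdx6 by -1.38 and Prdx5 by -1.26. In FPKM, Txnrd2 alone of this list lay wholly higher in FET-chow than in NC-chow (limma adjusted p = 0.642), beside 1.98% of all genes. With median-ratio scaling it stayed so, and Prdx1 and Prdx4 joined it, beside 7.98% of all genes.

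Of the remaining genes of superoxide, peroxide and quinone defence, 12 of 13 were tested, and 9 lay below 0 in FET-chow minus NC-chow (median -0.72; 8 and -0.31 with median-ratio scaling). Selenop, the selenium carrier that hepatocytes secrete, was 168, 176 and 176 FPKM in NC-chow, 46.5, 203 and 403 FPKM in IVF-chow, and 43.2, 39.8 and 55.3 FPKM in FET-chow. The FET-chow livers lay below the NC-chow livers, as for 17.1% of all genes, while IVF-chow overlapped NC-chow. The FET-chow difference of -1.90 did not pass (limma adjusted p = 0.486). With median-ratio scaling FET-chow was 39.1, 32.8 and 109.9 against 179, 131 and 114 in NC-chow, so that FET-chow mouse 4 lay close below NC-chow mouse 6. Pon1, a paraoxonase of high-density lipoprotein, differed by -2.09 (adjusted p = 0.411), Nqo2, a quinone reductase, by -1.17 and Park7 by -0.85.

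**Figure D5:**
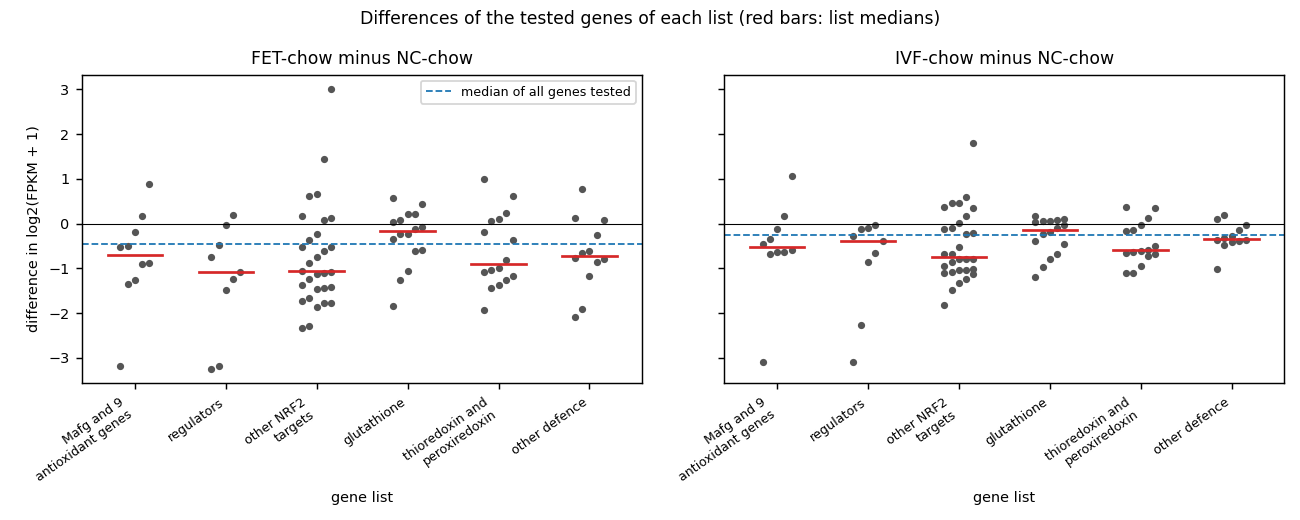
Differences in log2(FPKM + 1) against NC-chow for the tested genes of each list (points), with list medians (red) and the median of all genes tested (dashed); Mafg is drawn in the first list and again among the regulators. The other NRF2 targets have a median of -1.07 in FET-chow, with Osgin1 alone near 3, and the glutathione genes a median of -0.18, which turned to 0.24 with median-ratio scaling.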

How the data were processed

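Liver RNA of 9 mice was sequenced on an Illumina Nova6000 system. The authors deposited FPKM values for 55335 genes by Ensembl identifier. Per the submitters' processing notes FastQC 0.11.5, STAR 2.5.3a, StringTie 1.3.1c and DESeq2 1.16.1 were used; their roles, the build, annotation and strandedness are not given in the sources used here. Symbols came from GENCODE vM21 (GRCm38; 55154 matched, 181 did not). Depth was estimated from single-fragment steps (up to 5 fragments, tolerance 2%); 38.2% to 58.9% of low values lay on a step, against 13% by chance. It covers counting error only.

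limma 3.58.1 (R 4.3.3) was run on log2(FPKM + 1) over the 6755 genes whose mean was 1 FPKM or more, as 1 model of 3 groups with trend, two-sided, Benjamini-Hochberg adjusted over all genes tested. Fold differences on this scale are understated for low genes. For FET against NC, data of 6755 genes were simulated with 200 genes raised in FET. A log2 increase of 3 was recovered for 54.9% of the raised genes and an increase of 6 for 98.7%. Decreases were not simulated, so their recovery is not known. Replicates are separate mice.

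Members and lists were chosen with earlier results of these data known. Named were the members, all regulators, the 4 tested genes per other list with the largest difference in FET against NC, the 5 genes nearest to Mafg in centred log2 profile, neighbours of Mafg, listed genes called in any comparison, and markers as sums. Kupffer cell markers and some other listed genes are also named for whether their groups overlapped. Alternatives were a pseudocount of 0.1, no filter, median-ratio scaling, scaling to nuclear protein-coding genes, only the groups compared, leaving out each mouse, NC-chow mouse 1 as the only NC-chow mouse, and a block for the mouse number.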

Additional observations from a re-analysis of the deposited data

How the results depend on the processing

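No difference of the 9 antioxidant genes passed the threshold in any of 324 alternative values. Of these values 33 had the other sign, and 11 of the 27 differences kept their sign throughout. Those of Txnrd1 in comparisons with IVF-chow, the group through which it entered the tests, are a description. Mafg was picked for its lower levels outside NC-chow, and its NC-chow values all lay above the others. The settings that follow could therefore not turn its sign, and they show only how its size moved. Against NC-chow Mafg differed by -5.51 (FET-chow) and -5.03 (IVF-chow) with a pseudocount of 0.1. It differed by -2.46 and -2.36 against NC-chow mouse 1 alone, and by -3.59 to -2.97 and -3.49 to -2.84 leaving out 1 mouse.

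Counts of genes called depended on the processing. For FET-chow against NC-chow, 16 became 0 with no filter (2618 at an unadjusted p under 0.05), 0 with only the groups compared (1031), 6 against NC-chow mouse 1 alone (that mouse is assumed to vary like the other groups), and 1 (without FET-chow mouse 3) to 83 (without NC-chow mouse 1) leaving out 1 mouse. For IVF-chow against NC-chow, 4 became 0 with a pseudocount of 0.1 (179), no filter (1580), median-ratio scaling (361), protein-coding scaling (343) or only the groups compared (318), 2 against NC-chow mouse 1 alone, and 0 to 24 leaving out 1 mouse. For FET-chow against IVF-chow, 6 became 0 with no filter (829) or only the groups compared (207), and 0 to 10 leaving out 1 mouse. With the mouse number as a replicate block it was 2 (244); same-numbered livers had residual correlations of -0.131, 0.0215 and -0.255, so the numbers were not taken as pairs. The cause was not tested.

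Signs turned in FET-chow minus NC-chow for Gclc (0.10 with protein-coding scaling, 0.08 against NC-chow mouse 1 alone), Gclm (-0.10, mouse 1 alone) and Gpx1 (0.30 and 0.43 with median-ratio and protein-coding scaling). In IVF-chow minus NC-chow they turned for Gclm (-0.09 with a pseudocount of 0.1, -0.83 with mouse 1 alone), Sod1 (0.27, mouse 1 alone), Sod2 (0.16 with median-ratio and 0.08 with protein-coding scaling) and Gpx1 (0.08, median-ratio), and in FET-chow minus IVF-chow for Hmox1 (-0.95 with a pseudocount of 0.1, -0.02 and -0.01 with median-ratio and protein-coding scaling). Leaving out 1 mouse, the ranges that crossed 0 were -0.02 to 0.41 (Txnrd1) and -0.77 to 0.80 (Gpx1) in FET-chow minus NC-chow; -0.92 to 0.06 (Nqo1), -0.65 to 1.04 (Gclm), -1.30 to 0.13 (Sod1), -0.70 to 0.58 (Sod2), -1.32 to 0.14 (Cat) and -1.07 to 0.77 (Gpx1) in IVF-chow minus NC-chow; and -0.69 to 0.55 (Hmox1), -0.24 to 0.49 (Gclc), -0.15 to 1.53 (Gclm), -1.40 to 0.03 (Sod1), -1.04 to 0.42 (Cat) and -0.97 to 1.15 (Gpx1) in FET-chow minus IVF-chow.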

Other observations

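The genes whose profile over the 9 livers lay nearest to that of Mafg were read as the smallest root mean square difference of centred log2(FPKM + 1), where the median over 6754 genes was 1.68. Dbp, a transcription factor of the circadian output, was nearest (0.55). It was 12.9, 20.5 and 21.5 FPKM in NC-chow, 1.28, 0.552 and 3.26 FPKM in IVF-chow, and 1.82, 0.611 and 2.89 FPKM in FET-chow. As for Mafg, NC-chow lay wholly above the other groups and mouse 1 was the lowest of the NC-chow mice, with differences of -2.86 for FET-chow and -2.94 for IVF-chow. Next came the pseudogene Mup-ps14 (0.69), the non-coding Gm44421 (0.71), Akr1c14, a hydroxysteroid dehydrogenase (0.76), and the non-coding Gm34654 (0.79), which is also the nearest annotated neighbour downstream of Gclc. These genes were picked for their likeness to Mafg, so no test is given. The hour of day at which the livers were taken is not given in the sources used here, and its part in these values was not tested.

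Akr1c14 was 34.2, 36.5 and 40.1 FPKM in NC-chow, 17.6, 5.05 and 4.9 FPKM in IVF-chow, and 1.49, 1.05 and 21.3 FPKM in FET-chow. Its higher livers outside NC-chow, IVF-chow mouse 2 and FET-chow mouse 4, were the same livers in which Mafg was highest outside NC-chow. Akr1c14 was picked for its likeness to Mafg, so nothing is read from this. The same livers had the smallest share of FPKM on nuclear protein-coding genes (4.36% and 4.41%). Among the pathway genes, Gstm4 was nearest to Mafg (0.98, rank 51), followed by Abcc2 (1.05, rank 78) and Aox1 (1.06, rank 80). Nfe2l2 stood at rank 201, and the nearest of the 9 antioxidant genes, Gclc, at rank 1103 (1.43).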
